A study of Homo sapiens with 4 samples.

Results

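AP-1 and the immediate early factors were represented by 9 genes, and every one of them had a row among the 25559 gene symbols counted by RNA-seq in HGC27 cells. They comprised the 3 JUN genes (JUN, JUNB and JUND), the 4 FOS genes (FOS, FOSB, FOSL1 and FOSL2), ATF3 and EGR1, and they were taken by symbol from the files. HGC27, also written HGC-27, is an established human gastric cancer cell line. Poly(A) RNA was sequenced from 2 wt libraries, which carry the wildtype genotype, and from 2 RUNX3KO libraries of the same line in which RUNX3 was knocked out. The knockout was made with Cas9 and guides delivered by lentivirus, followed by cloning from single cells. The number of clones behind the RUNX3KO libraries is not given, so an effect of the knockout and a difference between clones cannot be told apart. Nothing in the labels says that the 2 libraries of a group came from separate cultures, and the p-values therefore measure only the spread between these libraries, which may be technical.

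AP-1 is a transcription factor built as a dimer of proteins with a basic leucine zipper (bZIP). A JUN protein pairs with a FOS protein, with another JUN protein or with a member of the ATF family, and the dimer binds short sites in promoters and enhancers. Many of its genes are immediate early genes, which are transcribed within minutes of a growth factor or stress signal without new protein synthesis, chiefly through MAP kinases acting on factors already present in the cell. EGR1 is a zinc finger factor of the same early response and is not part of AP-1. In epithelial tumours AP-1 is best known for genes of invasion and matrix remodelling.

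Reads counted on genes numbered 11731401 to 12110876 per library. RUNX3 itself had 351 and 308 reads in the wt libraries and 225 and 185 in the RUNX3KO libraries, a fall from 27.9 to 17.2 CPM, which are reads scaled to the size of the library (log2 fold change -0.70, SE 0.0961, adjusted p = 1.43e-09), and without RUNX3KO 2 the adjusted p was 0.0649. Adjusted p-values come from the quasi-likelihood test of edgeR, adjusted after Benjamini and Hochberg for all 12967 tested genes, except where an alternative analysis is named. RUNX3 mRNA was thus lower but not absent. Protein was not measured here, whereas the study reports from an immunoblot that its knockout cells lacked RUNX3 protein. The 7 markers of differentiated stomach were at 3 counts or fewer in every library. Of 5 epithelial markers, EPCAM and KRT19 were also at or under 3 counts everywhere, and the summed count of all 5 ran from 33 to 35 in wt and from 104 to 127 in RUNX3KO. KRT8 contributed 72 and 81 of the counts in RUNX3KO and 19 and 11 in wt, where CDH1 had 15 and 21. The summed count of 4 mesenchymal markers, nearly all of it VIM, ran from 58604 to 58986 in wt and from 34693 to 36210 in RUNX3KO, and CDH2 was at or under 3 counts throughout. Of 4 blood cell markers, CD3E was at 0 everywhere and the sum ran from 14 to 21 in wt and from 8 to 11 in RUNX3KO, whereas both endothelial markers were at 0. These marker sums differ between the groups that are compared below, and their part in the results was not tested.

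The letters before the transcription start are shown for the 4 genes whose change kept its direction and its significance in the 11 alternative analyses that give a p-value, so that what their promoters share and do not share can be read directly. Each run is the 250 bases upstream of the start from RefSeq on build GRCh38.p14, written 5′ to 3′ on the strand of the gene. Capitals mark a CArG box, the site bound by serum response factor, in EGR1, a cAMP response element (TGACGTCA) in JUND, and GC boxes (GGGCGG or its complement CCGCCC) in JUND and FOSL2. The windows lie at chr5:138465229-138465478 on the plus strand for EGR1, chr2:28392608-28392857 on the plus strand for FOSL2, chr19:12791236-12791485 on the plus strand for JUNB and chr19:18281623-18281872 on the minus strand for JUND.
EGR1: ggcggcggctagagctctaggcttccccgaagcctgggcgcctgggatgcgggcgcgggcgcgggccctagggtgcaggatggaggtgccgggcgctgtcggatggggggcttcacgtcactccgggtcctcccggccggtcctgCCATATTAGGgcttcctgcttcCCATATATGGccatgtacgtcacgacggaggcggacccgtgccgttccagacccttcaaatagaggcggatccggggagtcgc
FOSL2: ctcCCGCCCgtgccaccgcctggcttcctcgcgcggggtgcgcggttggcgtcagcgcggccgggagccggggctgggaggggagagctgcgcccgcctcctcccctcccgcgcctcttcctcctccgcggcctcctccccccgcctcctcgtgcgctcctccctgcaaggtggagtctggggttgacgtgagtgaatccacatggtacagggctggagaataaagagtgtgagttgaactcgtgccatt
JUNB: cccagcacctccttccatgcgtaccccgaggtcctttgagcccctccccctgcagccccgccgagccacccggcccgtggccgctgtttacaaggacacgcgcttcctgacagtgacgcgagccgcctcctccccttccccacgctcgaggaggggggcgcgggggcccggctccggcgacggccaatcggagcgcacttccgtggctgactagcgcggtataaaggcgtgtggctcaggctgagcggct
JUND: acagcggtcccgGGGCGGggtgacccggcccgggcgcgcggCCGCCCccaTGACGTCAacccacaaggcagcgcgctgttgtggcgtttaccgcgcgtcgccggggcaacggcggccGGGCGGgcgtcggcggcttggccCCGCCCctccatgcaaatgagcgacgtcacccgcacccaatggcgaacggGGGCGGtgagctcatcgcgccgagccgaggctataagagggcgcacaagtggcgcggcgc

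The motifs searched, on both strands, were the AP-1 site (TGACTCA), the cAMP response element, the RUNX site (TGTGGT or TGCGGT), the GC box and the CArG box. The EGR1 window held 2 CArG boxes, CCATATTAGG at 105 to 96 bases and CCATATATGG at 83 to 74 bases before the start, where 1.16% of 35116 RefSeq windows of the same length hold at least 1. The JUND window held 1 cAMP response element at 200 to 193 bases before the start and 5 GC boxes, and over all windows 1.65% hold the former and 42.6% the latter. FOSL2 had 1 GC box and JUNB matched none of these motifs. RefSeq windows were also found for JUN with 2 GC boxes, FOS with 1, FOSB with 2 and ATF3, whose 2 windows held 1 and 0, so that 8 of the 9 genes had a window, and FOSL1 was not searched. The AP-1 site (4.2% of all windows) and the RUNX site (16.3%) matched in none of the 9 windows. A match is only a string of letters, and the lack of one says that those letters are not within these 250 bases.

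Of the 9 genes, 7 had enough reads to be tested, and they moved in both directions. FOSL2, JUNB and JUND were lower in RUNX3KO and EGR1, JUN and ATF3 were higher at an adjusted p under 0.05, whereas FOS was not called. The 3 lower genes were 42.9% of those tested and the 3 higher genes another 42.9%, against a background in which 24.4% of the 12967 tested genes were called lower and 24.5% higher. At a fold change of at least 2 with an unadjusted p of at most 0.05, EGR1 alone among the 7 was called, and 6.12% of all tested genes met the same criteria. The wt and RUNX3KO libraries did not overlap for 6 of the 7, but this holds for 72.7% of all tested genes and so says little about the members. The median log2 fold change of the 7 was -0.18, next to -0.0021 over all tested genes. FOSB and FOSL1 had too few reads for the test. The calls of JUN and ATF3 were lost in several alternative analyses, as given below, while the other 4 calls were not. In bulk RNA, fewer cells that express a gene and less of its RNA per cell cannot be told apart.

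**Figure D1:**
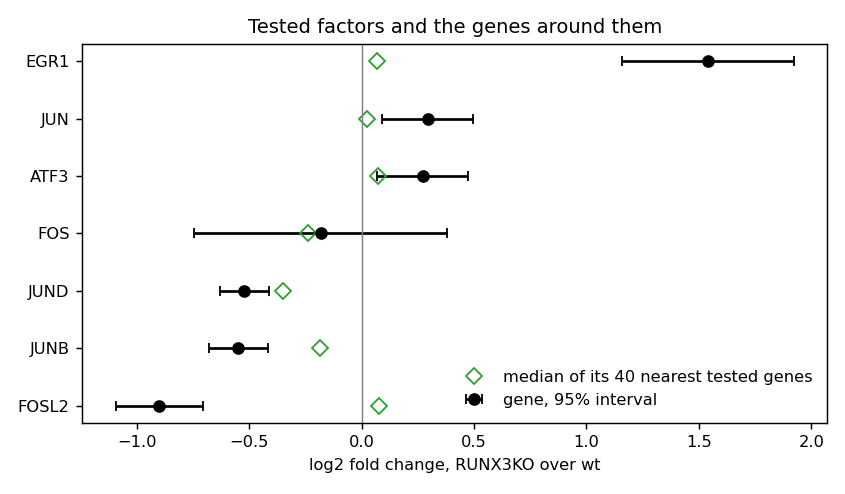
Log2 fold change of the 7 tested genes (RUNX3KO over wt, horizontal axis), where points are the fitted values and bars the 95% confidence intervals; open diamonds are the medians of the 40 nearest tested genes. EGR1 stands at 1.54, FOSL2, JUNB and JUND lie wholly below 0, JUN and ATF3 just above 0, and the interval of FOS spans 0.

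The JUN genes encode the partners that every AP-1 dimer of the classical kind needs. JUND, the member most cells make at rest, was the most highly expressed of all 9 genes. It lies at chr19:18390504-18392432 on the minus strand of hg19 and consists of 1 exon. Its read counts were 919 and 888 in the wt libraries and 619 and 652 in the RUNX3KO libraries. Both RUNX3KO libraries lay below both wt libraries, and the mean level was 76.5 ± 1.83 CPM in wt and 53.3 ± 1.26 CPM in RUNX3KO (SD, n = 2). This is a 1.43-fold lower level, with a log2 fold change of -0.52 (SE 0.0556, 95% confidence interval -0.63 to -0.41, edgeR adjusted p = 1.29e-13).

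JUNB, a JUN protein with weaker activating power than JUN, behaved alike in direction. It is a gene of 1 exon at chr19:12902300-12904129 on the plus strand of hg19. The wt libraries held 699 and 646 reads and the RUNX3KO libraries 438 and 490. There was no overlap between the groups, and the level fell from 57.0 ± 3.16 to 38.9 ± 2.58 CPM (SD, n = 2). The log2 fold change was -0.55 (SE 0.0658, 95% confidence interval -0.68 to -0.42, edgeR adjusted p = 1.22e-11). The JUNB gene lies wholly within the span of HOOK2 on the opposite strand, with 259 bases of shared exon. HOOK2 had 303 and 332 reads in wt and 212 and 246 in RUNX3KO (log2 fold change -0.48, edgeR adjusted p = 5.66e-06). The strand setting of the read counting is not given, so how reads over those bases were counted is not known.

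JUN, the founding member and the target of JNK, went the other way. It sits at chr1:59242517-59249720 on the minus strand of hg19, as 1 exon. Reads numbered 223 and 186 in wt and 268 and 238 in RUNX3KO, so that the higher wt library and the lower RUNX3KO library lay close together without overlapping. The level went from 17.3 ± 2.21 to 21.3 ± 2.06 CPM (SD, n = 2), with a log2 fold change of 0.29 (SE 0.101, 95% confidence interval 0.09 to 0.50, edgeR adjusted p = 0.0120). This call was not stable. It was lost in 5 of 11 alternatives, with an adjusted p of 0.137 without the filter on low counts, 0.203 with DESeq2, and 0.273, 0.383 and 0.141 without wt 2, RUNX3KO 1 and RUNX3KO 2. The log2 fold change ranged from 0.17 without wt 2 to 0.43 without wt 1.

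**Figure D2:**
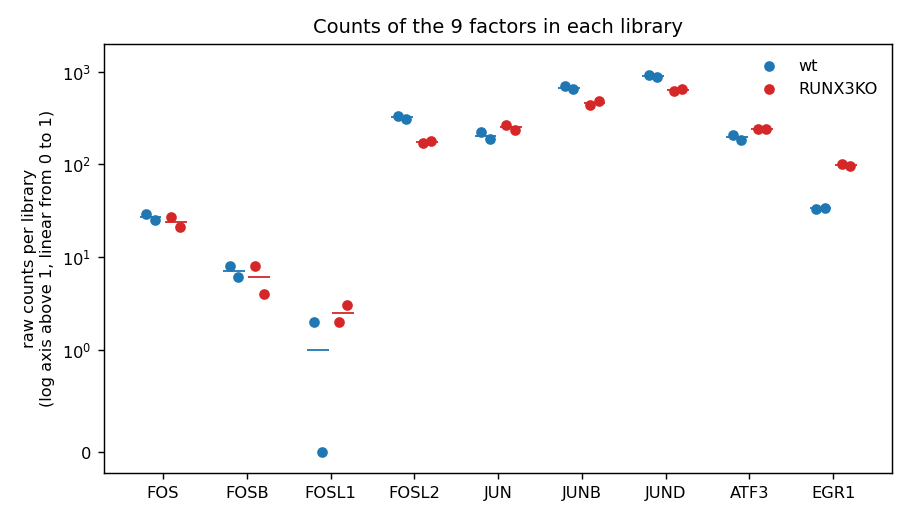
Read counts of the 9 genes in each library (vertical axis, raw counts on a scale that is logarithmic above 1), with wt libraries in blue, RUNX3KO libraries in red and a bar at each group's mean. JUND, with 619 to 919 reads, is the highest gene in every library, and FOSL1, with 0 to 3, the lowest.

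The FOS genes encode partners that dimerise with JUN proteins but not with one another. FOSL2, also called FRA2, was the FOS gene with the most reads and the one that fell furthest. It has 4 exons at chr2:28615315-28640184 on the plus strand of hg19. There were 333 and 312 reads in wt and 170 and 179 in RUNX3KO, a wide gap between the groups. The level fell from 27.3 ± 1.25 to 14.6 ± 0.344 CPM (SD, n = 2), which is 1.86-fold lower. The log2 fold change was -0.90 (SE 0.0970, 95% confidence interval -1.09 to -0.71, edgeR adjusted p = 2.03e-13), and 622 tested genes had a larger fall.

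FOS, the archetype of the immediate early genes, was expressed at a low level. The gene has 4 exons at chr14:75745529-75748933 on the plus strand of hg19. It had 29 and 25 reads in wt and 27 and 21 in RUNX3KO, and the groups overlapped. Mean levels were 2.29 ± 0.239 and 2.02 ± 0.382 CPM (SD, n = 2). The log2 fold change of -0.18 (SE 0.283, adjusted p = 0.628 in edgeR) has a 95% confidence interval from -0.75 to 0.38, so that neither a fall nor a modest rise was resolved at this depth.

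FOSB and FOSL1 were scarcely detected. FOSB, with 4 exons at chr19:45971253-45978437 on the plus strand, had 8 and 6 reads in wt and 8 and 4 in RUNX3KO, which overlap. Tested without the filter on low counts, its log2 fold change was -0.23 (edgeR adjusted p = 0.790). ERCC1 spans it on the opposite strand with no shared exon. FOSL1, also called FRA1 and often abundant in mesenchymal-like tumour cells, has 4 exons at chr11:65659520-65668044 on the minus strand. It had 2 and 0 reads in wt and 2 and 3 in RUNX3KO. All 4 libraries were at or under 3 counts and no fold change is given.

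ATF3, a stress-induced bZIP factor that pairs with JUN proteins, has 4 exons at chr1:212738676-212794119 on the plus strand of hg19. The wt libraries had 209 and 185 reads and both RUNX3KO libraries had 240. The groups did not overlap, and the level went from 16.7 ± 1.43 to 20.1 ± 0.262 CPM (SD, n = 2). The log2 fold change was 0.27 (SE 0.101, 95% confidence interval 0.07 to 0.47, edgeR adjusted p = 0.0204). Like that of JUN, the call was lost in 5 of 11 alternatives, with an adjusted p of 0.0696 without the filter, 0.240 with DESeq2, and 0.234, 0.181 and 0.165 without wt 2, RUNX3KO 1 and RUNX3KO 2.

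EGR1 showed the largest change of the 7 tested genes. It has 2 exons at chr5:137801168-137804992 on the plus strand of hg19, downstream of the promoter with the 2 CArG boxes printed above. Reads numbered 33 and 34 in the wt libraries and 101 and 96 in the RUNX3KO libraries. The 2 libraries of each group lay close together and far from the other group, and the level rose from 2.84 ± 0.0607 to 8.27 ± 0.404 CPM (SD, n = 2). EGR1 was 2.91-fold higher in RUNX3KO, with a log2 fold change of 1.54 (SE 0.192, 95% confidence interval 1.16 to 1.92, edgeR adjusted p = 5.41e-11), and 125 tested genes rose further. Per kb of exon it ranked 6 of the 9 genes in wt and 5 in RUNX3KO.

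Changes of EGR1, FOSL2, JUNB and JUND held under each of the 11 alternatives that give a p-value. The log2 fold change of EGR1 ran from 1.49 to 1.59, that of FOSL2 from -0.95 to -0.85, that of JUNB from -0.62 to -0.48 and that of JUND from -0.55 to -0.49. The largest adjusted p was 0.0214 for EGR1, 0.0233 for FOSL2, 0.0344 for JUNB and 0.0225 for JUND.

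**Figure D3:**
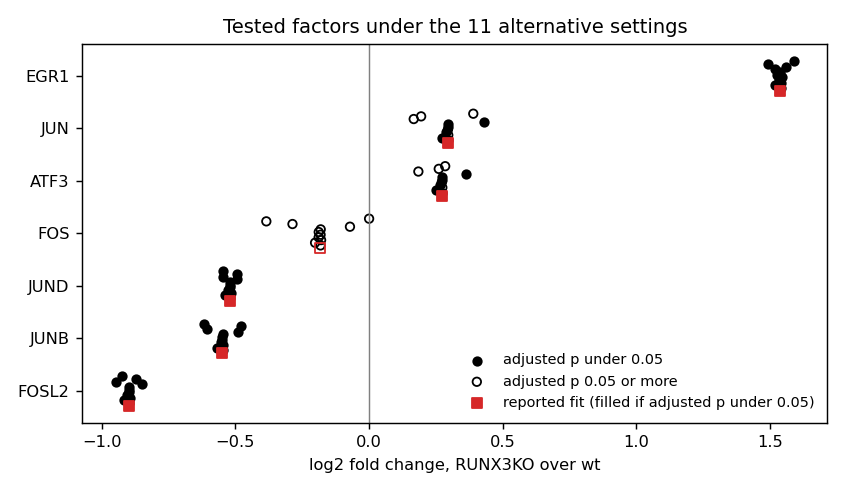
Log2 fold change of the 7 tested genes in the analysis as reported and under the 11 alternatives (horizontal axis); the square is the value as reported, circles are alternatives, and filled symbols have an adjusted p under 0.05. EGR1 stays between 1.49 and 1.59 and FOSL2 between -0.95 and -0.85, while FOS ranges from -0.38 to 0.

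Genes next to the members on the chromosome did not all stay level. For each tested member the 40 nearest tested genes (20 on each side) were read from the same fit by the sign of their log2 fold change, whether or not they were called, and over all tested genes 50.4% had a negative sign. Around JUND, 37 of the 40 were negative. Their median log2 fold change was -0.35, and 10 had fallen at least as far as JUND. Less the median of its neighbours, the log2 fold change of JUND was -0.17. Around JUNB, on the same chromosome, 33 of 40 were negative with a median of -0.19, and 4 fell at least as far. The difference left for JUNB was -0.36. FOSL2 and EGR1 differed from the genes around them. The neighbours of FOSL2 had a median of 0.08, with 11 negative, and those of EGR1 a median of 0.07, with 24 positive, and in neither case had a neighbour moved as far in the same direction. The medians were 0.02 around JUN, 0.07 around ATF3 and -0.24 around FOS. Copy number was not measured, and its part in these regional values was not tested.

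Levels per kb of exon were set beside one another to order the members. In wt the order ran JUND, JUNB, JUN, ATF3, FOSL2, EGR1, FOS, FOSB and FOSL1, from 39.7 ± 0.951 CPM per kb for JUND and 31.1 ± 1.73 for JUNB to 0.0449 ± 0.0635 for FOSL1 (SD, n = 2). The libraries of JUN and ATF3 overlapped, and so did those of ATF3 and FOSL2, so these neighbours were not told apart. In RUNX3KO the order was JUND, JUNB, JUN, ATF3, EGR1, FOSL2, FOS, FOSL1 and FOSB, with only the last pair overlapping. EGR1 at 2.64 ± 0.129 CPM per kb thus lay above FOSL2 at 2.05 ± 0.0480 in RUNX3KO, whereas in wt it lay at 0.905 ± 0.0194 against 3.81 ± 0.175. With the longest transcript in place of the exon union as the length, JUN and ATF3 changed places in both groups, as did FOS and EGR1 in wt and FOSB and FOSL1 in RUNX3KO.

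Summed over the family, JUN transcripts stood at 77.9 and 73.3 CPM per kb in wt and at 53.7 and 55.9 in RUNX3KO. The FOS genes summed to 4.92 and 4.45 in wt and to 2.94 and 2.82 in RUNX3KO, so that JUN family transcripts far outnumbered FOS family transcripts in every library. The makeup of each sum differed as well. JUN made up 6.31% ± 0.533 of the JUN family sum in wt and 10.7% ± 1.33 in RUNX3KO, JUND 52.5% ± 1.03 and 50.5% ± 0.183, and JUNB 41.2% ± 0.493 and 38.8% ± 1.51 (SD, n = 2). FOSL2 made up 81.5% ± 2.1 of the FOS family sum in wt and 71.1% ± 3.79 in RUNX3KO. FOS, whose own level was not called different, made up 15.3% ± 0.508 and 21.9% ± 3.51. These sums and shares are a description and were not tested.

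**Figure D4:**
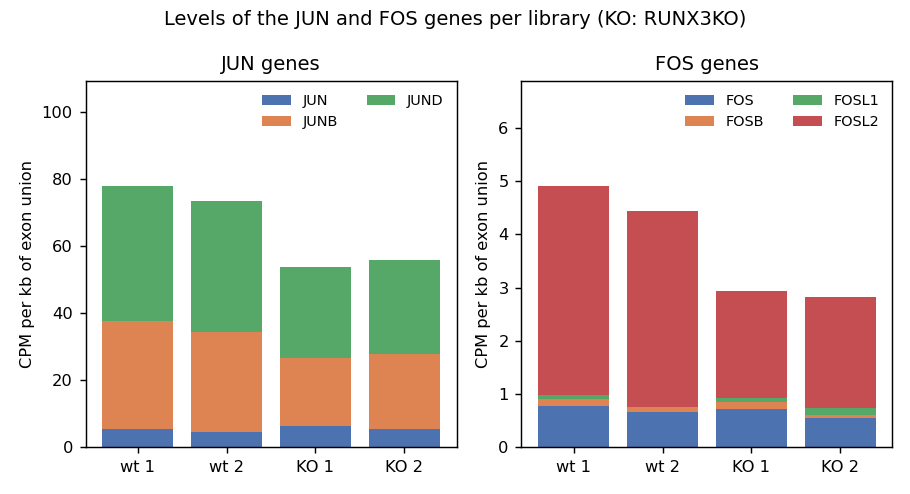
Level in CPM per kb of exon union (vertical axis) stacked by gene in each library, for the JUN genes at left and the FOS genes at right. Both stacks are lower in the RUNX3KO libraries, at 53.7 and 55.9 for JUN and 2.94 and 2.82 for FOS.

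Of 33 other genes for bZIP proteins, many of which can pair with AP-1, 28 were tested, 6 were lower, 9 higher and 13 not called, with a median log2 fold change of 0.05. These counts stand beside 24.4% lower and 24.5% higher over all tested genes. ATF4, the effector of the integrated stress response, went from 4779 and 4948 reads in wt to 3787 and 4011 in RUNX3KO (log2 fold change -0.33). CREB3L2 fell by 0.36 and CEBPB by 0.33 on the log2 scale. ATF5 rose furthest, from 443 and 462 to 782 and 768 reads (log2 fold change 0.76, edgeR adjusted p = 6.58e-19), followed by CEBPD at 0.52 and NFIL3 at 0.44. JDP2, a repressor that competes for AP-1 sites, was lower at -0.28 (edgeR adjusted p = 1.01e-05), whereas BATF3 stood at 0.13 (adjusted p = 0.521). The call of CEBPB was lost in 5 of 11 alternatives (adjusted p up to 0.229) and that of CEBPD in 4 (up to 0.214). Without RUNX3KO 1 and RUNX3KO 2 in turn, the adjusted p was 0.0920 and 0.178 for NFIL3 and 0.0948 and 0.135 for JDP2.

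Among 39 other immediate early genes 36 were tested, of which 9 were lower, 6 higher and 21 not called (median -0.06). Both counts can be read beside the 24.4% lower and 24.5% higher over all tested genes, and no test of the list was made. KLF4 fell furthest, from 93 and 82 reads to 24 and 28 (log2 fold change -1.76, edgeR adjusted p = 1.19e-11). TRIB1 fell by 0.55 and NFKBIA, the inhibitor of NF-κB, by 0.52 on the log2 scale. IER2 was lower at -0.33 (edgeR adjusted p = 0.000183) and NR4A1 at -0.25 (adjusted p = 0.00936), whereas ZFP36, which destabilises early transcripts, stood at -0.44 with an adjusted p of 0.117. Higher genes included CTGF, which encodes a secreted matrix protein and went from 115 and 129 to 220 and 208 reads (log2 fold change 0.80), and its relative CYR61 (0.32, edgeR adjusted p = 2.54e-08). HBEGF, an EGF receptor ligand, rose by 0.73 and the kinase PLK2 by 0.59 on the log2 scale. The call of NR4A1 was lost in 4 of 11 alternatives (adjusted p up to 0.175), that of IER2 without RUNX3KO 1 (0.0771) or RUNX3KO 2 (0.0818), and that of HBEGF with DESeq2 (0.0664) or without RUNX3KO 2 (0.0726).

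The next list holds transcription factors and cofactors that act on immediate early genes. SRF, which binds CArG boxes, had 865 and 823 reads in wt and 873 and 847 in RUNX3KO (log2 fold change 0.01, edgeR adjusted p = 0.853). ELK1, the partner of SRF phosphorylated by MAP kinases, stood at 0.02 (adjusted p = 0.855), CREB1 at 0.07 (0.404) and ATF2 at -0.10 (0.284). NAB1 and NAB2, corepressors that bind EGR1, stood at -0.01 (adjusted p = 0.960) and 0.08 (adjusted p = 0.273). Over the 22 genes of the list 21 were tested, with 6 lower, 4 higher and 11 not called (median 0.01), beside 24.4% lower and 24.5% higher over all tested genes. The SRF cofactor MKL1 fell from 374 and 379 to 211 and 228 reads (log2 fold change -0.79, edgeR adjusted p = 7.62e-13), TCF7L2 by 0.58 and the coactivator EP300 by 0.57 on the log2 scale. MEF2A rose by 0.69 and CRTC3 by 0.59. Without RUNX3KO 2 the adjusted p of TCF7L2 was 0.0582.

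All 34 genes of the MAP kinase cascade were tested, and 9 were lower, 8 higher and 17 not called (median 0.02). Over all tested genes 24.4% were lower and 24.5% higher, so the counts of the cascade lie near the background. RPS6KA2, which encodes a ribosomal S6 kinase, fell from 91 and 107 to 22 and 15 reads (log2 fold change -2.43), and MAPK12, a p38 kinase, fell by 0.75 on the log2 scale. MAP3K1, MAP3K5 and MAP2K1 rose by 0.63, 0.44 and 0.31. MAPK10, a JNK gene with few reads that was named after its values were seen, went from 6 and 5 to 17 and 26 reads (log2 fold change 1.93, edgeR adjusted p = 7.32e-05), a call lost in 1 of 10 alternatives that tested it (adjusted p = 0.0588). MAPK8, which encodes JNK1, stood at -0.27 with overlapping groups (edgeR adjusted p = 0.0396), and its call was lost in 5 of 11 alternatives (adjusted p up to 0.580). The call of MAP2K1 was lost without RUNX3KO 1 (0.0546) or RUNX3KO 2 (0.130).

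Feedback inhibitors of MAP kinases, listed together with a few other genes that the pathway induces, such as the ETS factor ETV5, numbered 24, of which 17 were tested with 5 lower, 4 higher and 8 not called (median -0.01). The background over all tested genes was 24.4% lower and 24.5% higher. SPRY2 fell by 0.76, ETV5 by 0.54 and DUSP9 by 0.42 on the log2 scale, whereas DUSP8 rose by 0.45 and DUSP16 by 0.28. DUSP4, named after its values were seen because it was the one gene of the list past 2-fold, went from 32 and 30 to 13 and 16 reads (log2 fold change -1.10, edgeR adjusted p = 0.00169), a call lost in 3 of 11 alternatives (adjusted p up to 0.102). DUSP1, itself an immediate early gene, went from 207 and 188 to 246 and 242 reads (log2 fold change 0.29, edgeR adjusted p = 0.0119). Calls in this list were not stable, and with DESeq2 the list had 2 genes lower and 1 higher. Over all tested genes DESeq2 also gave fewer calls, with 1863 lower and 1829 higher. The call of DUSP8 was lost in 6 of 11 alternatives (adjusted p up to 0.234), that of DUSP1 in 4 (up to 0.195), those of SPRY2 and ETV5 in 3 each (up to 0.0853 and 0.107), that of DUSP16 in 2 (up to 0.0765) and that of DUSP9 in 1, without RUNX3KO 1 (0.0647). DUSP6, a phosphatase of MAP kinases, had only 1 and 2 reads in wt and 4 and 3 in RUNX3KO and was not tested.

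Factors that act on the stability of JUN and FOS proteins included 13 genes, all tested, with 2 lower and 7 higher (median 0.13), against 24.4% lower and 24.5% higher over all tested genes. DDB1, an adaptor of CUL4 ubiquitin ligases, fell by 0.06 on the log2 scale. DET1, an adaptor of the ligase that ubiquitinates JUN, rose by 0.62, NEDD4 by 0.42 and CSNK2A1 by 0.27. The call of DDB1 was lost in 7 of 11 alternatives (adjusted p up to 0.234), the replicate block among them (0.0691), that of DET1 with DESeq2 (0.0717) or without RUNX3KO 1 (0.0961), and that of CSNK2A1 without RUNX3KO 2 (0.0552). FBXW7, which also directs JUN to degradation, stood at 0.13 (edgeR adjusted p = 0.332). Protein levels of the members were not measured here.

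Of 43 genes known as targets of AP-1, 26 were tested, with 17 lower, 3 higher and 6 not called, where 24.4% of all tested genes were lower and 24.5% higher. The median log2 fold change was -0.42 against -0.0021 over all tested genes. At 2-fold, 8 were lower and 1 higher, where 6.12% of all tested genes passed in either direction. The list as a whole was not tested, and it was chosen with earlier results of these data known. Another 14 of the 43 were at 3 counts or fewer in every library. TNC, which encodes the matrix protein tenascin C, had 164 and 183 reads in wt and none in either RUNX3KO library. CD44, the hyaluronan receptor, went from 1266 and 1221 reads to 129 and 125 (log2 fold change -3.30), and MMP2, a matrix metalloproteinase, from 309 and 311 to 36 and 36 (-3.12). CLU went the other way, from 361 and 373 to 781 and 802 reads (log2 fold change 1.10), and EZR rose by 0.16, a call lost without RUNX3KO 1 (adjusted p = 0.0655) or RUNX3KO 2 (0.0518). Most of these targets also answer to factors other than AP-1, and what moved them was not tested. The mesenchymal marker sum given above, nearly all of it VIM, was also lower in RUNX3KO, and its part was not tested.

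Of 20 genes known as targets of EGR1, 15 were tested, with 6 lower, 3 higher and 6 not called (median -0.01), where 24.4% of all tested genes were lower and 24.5% higher. FN1, fibronectin and also one of the mesenchymal markers, fell from 115 and 95 to 15 and 11 reads (log2 fold change -3.01), THBS1 from 1010 and 998 to 375 and 392 (-1.40), and TGFB1 from 919 and 881 to 632 and 652 (-0.50). PDGFA rose by 0.31, SOD1 by 0.26 and CCND2 by 0.15 on the log2 scale. The call of PDGFA was lost in 5 of 11 alternatives (adjusted p up to 0.187) and that of CCND2 without RUNX3KO 1 (0.0762) or RUNX3KO 2 (0.103). Some genes stand in more than 1 list, such as DUSP1, HBEGF and TGFB1.

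**Figure D5:**
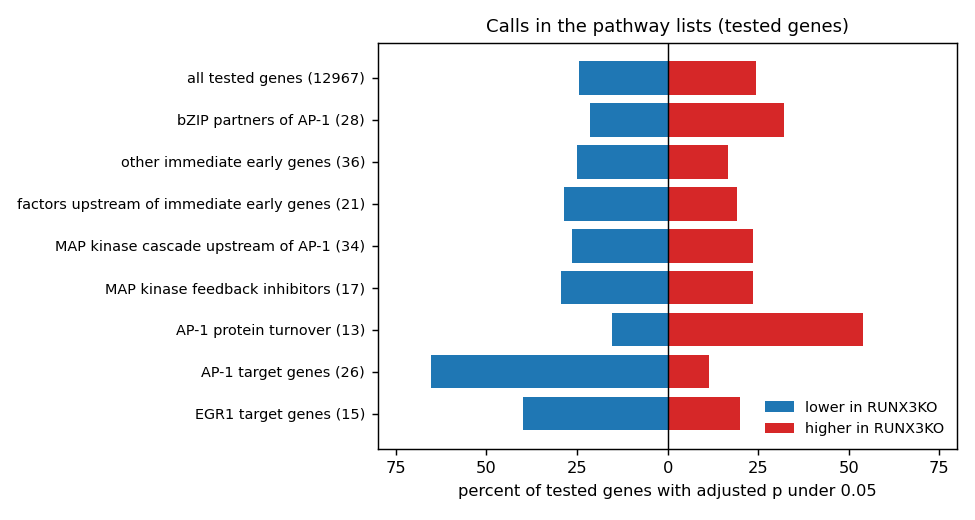
Percent of tested genes called lower (blue, to the left) and higher (red, to the right) in RUNX3KO at an adjusted p under 0.05 for each list and for all tested genes. AP-1 target genes, with 17 of 26 lower, lie furthest to the lower side, against 24.4% of all tested genes. The lists were chosen with earlier results of these data known.

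Genes whose profile over the 4 libraries was nearest to that of EGR1 were found by the Euclidean distance between log2 CPM profiles, each centred on its own mean. They were FBN2, a microfibril gene, at a distance of 0.0528, PCLO, a presynaptic scaffold gene, at 0.0529 and FOXP2, a forkhead factor, at 0.0810. FBN2 went from 1901 and 1892 reads to 5666 and 5392 (log2 fold change 1.53), PCLO from 1264 and 1298 to 3848 and 3684 (1.54) and FOXP2 from 93 and 98 to 298 and 265 (1.55). With 2 libraries a group the likeness says little more than that the fold changes are alike.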

How the data were processed

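RNA-seq was carried out on HGC27 cells, with 2 wt and 2 RUNX3KO libraries. The authors deposited, for each library, raw counts of reads per gene symbol. Per the labels, libraries were made with a stranded mRNA kit, reads were aligned to hg19 with HISAT2 2.1.0 and counted with HTSeq, whereas the methods of the study name other tools; the strand setting is not given in the sources used here. The 5 rows without a gene held 25.9% to 28.1% of counts and were left out.

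Counts were tested in R 4.3.3 with edgeR 4.0.16 (filterByExpr, minimum count 10, minimum total 15; TMM scaling, quasi-likelihood test, Benjamini-Hochberg adjustment over 12967 genes). CPM are counts scaled by the TMM library size. An exact permutation test of 2 against 2 libraries cannot go below p = 0.333, so none is given. Scripts were tested on simulated data. Gene positions and lengths came from GENCODE v44 lifted to GRCh37, which is hg19. Alternatives used DESeq2 1.42.0, limma 3.58.1 (voom), DESeq2 size factors, scaling by library size alone, no filter, at least 10 counts in every library, a replicate block, the longest transcript as gene length, a subtracted neighbourhood median, and each library left out in turn. The members, gene lists and markers were chosen with earlier results of these data known. Named were all members, genes of set roles, and from each list up to 3 falls and 3 rises with an adjusted p under 0.05, 50 counts or more on average and groups that did not overlap. Some genes that this rule names are not reported here. The deviations of same-numbered libraries were hardly correlated (0.0257). Libraries of a group differed little beyond counting noise, so this check could hardly detect pairing and does not exclude it.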

Additional observations from a re-analysis of the deposited data

How the results depend on the processing

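The cause of each change given here was not tested, except that leaving out a library leaves fewer samples, the lone library then being assumed to vary like the other group. Without the filter on low counts 1 member was higher, 3 bZIP partners lower, 2 feedback inhibitors higher (median 0.0056) and, for AP-1 turnover, 1 lower and 4 higher. With DESeq2, 1863 genes in all were lower and 1829 higher, 1 member higher, bZIP partners 3 lower and 5 higher, other immediate early genes 3 higher, the MAP kinase cascade 4 lower and 5 higher, feedback inhibitors 2 lower and 1 higher, and turnover 1 lower and 3 higher. With scaling by library size alone the median of upstream factors and the log2 fold change of SRF were both -0.0061. With at least 10 counts in every library the median of EGR1 targets was -0.1112. With the neighbourhood median subtracted, FOS stood at 0.056. With the replicate block, turnover had 1 lower gene, and the members kept 3 lower and 3 higher.

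Leaving out each library in turn gave 1 to 3 members higher (1 without wt 2, RUNX3KO 1 or RUNX3KO 2), 1378 to 2806 genes lower and 1285 to 2745 higher. Lower and higher calls were 2 to 5 and 3 to 8 for bZIP partners, 4 to 10 and 3 to 6 for other immediate early genes, 3 to 8 and 2 to 6 for the cascade (median -0.0296 to 0.0301), and 1 to 5 and 0 to 2 for feedback inhibitors (median -0.0539 to 0.0368). Upstream factors had 3 to 7 lower (median -0.0234 to 0.045), turnover 1 lower and 2 to 5 higher, AP-1 targets 1 to 3 higher, and EGR1 targets 1 to 3 higher (median -0.0735 to 0.0266). Log2 fold changes ran from -0.0234 to 0.0503 for SRF, -0.077 to 0.0649 for NAB1, -0.0447 to 0.3234 for BATF3 and -0.38 to 0 for FOS. At this depth, changes of genes with few reads, such as FOS, FOSB and FOSL1, were not resolved.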
